A study of Mus musculus with 6 samples.

Results

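The genes described here are 41 mouse genes of the lysosome: 15 subunits and accessory proteins of the V-ATPase, 17 lysosomal hydrolases, and 9 other lysosomal genes. They were taken by symbol from a fixed list, which was chosen with earlier results of these data known. All 41 were found among the 23886 Ensembl gene identifiers of the expression files. RNA was sequenced from AML12, a hepatocyte line derived from a mouse that carried a human TGF-alpha transgene. The question was what a static magnetic field (SMF) does to the transcriptome of these cells. There were 3 libraries of wild type AML12 cells without treatment (Control 2, Control 3 and Control 4) and 3 of the same cells treated with the field (SMF 1, SMF 2 and SMF 3). The sources used here give no field strength, exposure time or passage, and all 6 libraries come from 1 immortalized line. The labels do not say whether the libraries of a group came from separate cultures, so p-values measure the spread between these libraries, which may be technical.

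Lysosomes break down proteins, glycans, lipids and nucleic acids with hydrolases that work in an acid lumen. The V-ATPase keeps the lumen acid: its cytosolic V1 sector hydrolyses ATP, and its membrane V0 sector carries protons across. Many genes of both systems share an E-box element in their promoters, which the transcription factors TFEB and TFE3 bind when they enter the nucleus, and in the liver this programme is known for its part in autophagy during fasting.

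The promoter sequences are shown first because they mark which of these genes carry that element. Promoters were windows of 300 bases, from 250 before to 50 after the annotated start, taken from RefSeq on build GRCm38.p6, and 34 of the 41 genes had one. Exact matches were sought on both strands for TCACGTGA, its 7-base form TCACGTG and their shared core CACGTG, so that each longer match is also a match of the shorter forms. TCACGTGA was present in 6 of 34 promoters (17.65%) against 1.12% of the 27025 promoters of all genes. TCACGTG was present in 11 of 34 (32.35%) against 4.29%, and CACGTG in 13 of 34 (38.24%) against 8.09%. The palindrome with 1 further consensus base on either side, the full CLEAR element, was present in 0 of 34 and in 0.37% of all promoters. The following stretches run from 150 bases before to 30 bases after the start, 5′ to 3′ on the strand of the gene, with each TCACGTG on either strand (8 bases where the palindrome is complete) in capitals. They cover the 6 genes with the palindrome, and Atp6v0b and Lamp1, which have the 7-base form more than once.
Atp6v0b, chr4:117887300-117887479, minus strand: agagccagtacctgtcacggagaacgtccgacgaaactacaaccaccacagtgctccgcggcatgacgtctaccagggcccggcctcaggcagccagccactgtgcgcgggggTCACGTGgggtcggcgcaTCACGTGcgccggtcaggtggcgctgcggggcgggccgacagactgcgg
Atp6v0d1, chr8:105566035-105566214, minus strand: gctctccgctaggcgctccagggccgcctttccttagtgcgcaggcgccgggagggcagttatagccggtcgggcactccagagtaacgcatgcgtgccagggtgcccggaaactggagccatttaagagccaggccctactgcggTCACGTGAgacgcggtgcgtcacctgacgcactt
Atp6v0e, chr17:26676246-26676425, plus strand: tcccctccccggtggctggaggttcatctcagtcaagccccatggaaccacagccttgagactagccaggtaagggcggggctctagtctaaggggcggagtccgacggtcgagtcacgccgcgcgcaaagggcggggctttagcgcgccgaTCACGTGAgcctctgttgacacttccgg
Atp6v1a, chr16:44139230-44139409, minus strand: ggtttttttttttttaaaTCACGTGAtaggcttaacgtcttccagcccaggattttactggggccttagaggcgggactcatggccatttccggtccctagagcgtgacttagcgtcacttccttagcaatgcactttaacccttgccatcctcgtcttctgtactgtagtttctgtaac
Ctsa, chr2:164833623-164833802, plus strand: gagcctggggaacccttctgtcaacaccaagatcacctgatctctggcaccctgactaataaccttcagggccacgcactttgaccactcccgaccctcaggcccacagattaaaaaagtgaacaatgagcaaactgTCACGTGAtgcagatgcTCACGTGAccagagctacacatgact
Ctsd, chr7:142387798-142387977, minus strand: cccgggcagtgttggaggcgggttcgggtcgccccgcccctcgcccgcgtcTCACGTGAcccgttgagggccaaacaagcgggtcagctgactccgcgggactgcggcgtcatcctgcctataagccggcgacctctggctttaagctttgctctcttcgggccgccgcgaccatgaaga
Mcoln1, chr8:3500369-3500548, plus strand: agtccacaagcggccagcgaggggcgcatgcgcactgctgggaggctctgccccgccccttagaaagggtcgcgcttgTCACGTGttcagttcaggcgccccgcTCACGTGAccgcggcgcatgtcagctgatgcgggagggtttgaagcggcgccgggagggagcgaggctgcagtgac
Lamp1, chr8:13159011-13159190, plus strand: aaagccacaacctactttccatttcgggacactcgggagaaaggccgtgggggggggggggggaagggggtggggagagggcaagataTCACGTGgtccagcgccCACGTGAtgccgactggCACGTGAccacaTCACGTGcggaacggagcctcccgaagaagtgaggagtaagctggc

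In Atp6v0d1 the palindrome began 4 bases before the annotated start, and in Atp6v0e 2 bases after it. The bases just after the Atp6v0d1 start were not found in its GENCODE M21 transcripts, unlike those of the other genes printed. That distance is therefore less certain. Ctsa carried the palindrome at 13 bases before and at 4 bases after the start. In Atp6v0b the 7-base form began at 37 and at 19 bases before the start, and Lamp1 held 4 copies within 62 bases of it. In Atp6v1a the palindrome lay farther out, at 132 bases before the start. A match of letters is a description of these windows and not a measured binding site.

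**Figure D1:**
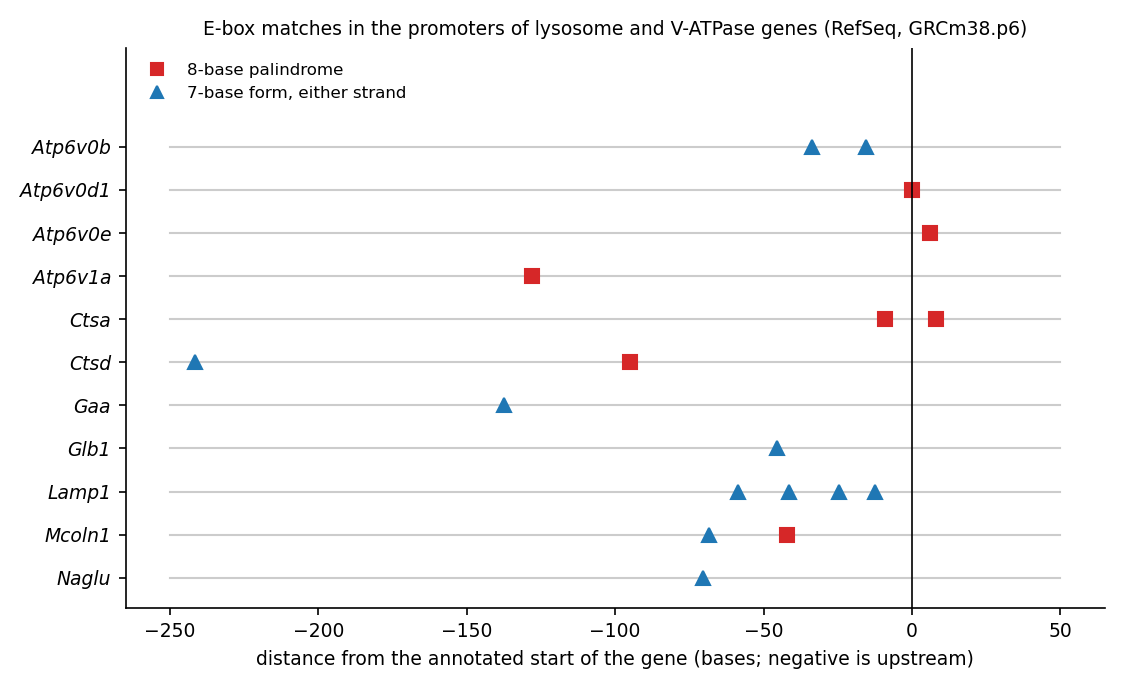
Positions of E-box matches in the promoters of the 11 genes with the 7-base form, in bases from the annotated start (horizontal axis, negative is upstream). Squares are the 8-base palindrome and triangles the 7-base form on either strand. Most matches lie in the last 100 bases before the start, and those of Atp6v1a, Gaa and the outer one of Ctsd lie farther upstream.

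Expression was given as FPKM, the fragments of a gene scaled to its length and to the library total. The FPKM values were whole multiples of 1 read, which gave back library totals of 15514530 to 18200516 reads. Correlation of log2(FPKM + 1) over the tested genes was 0.9911 to 0.9927 between libraries of a group and 0.9865 to 0.9915 between groups. Genes with at least 1 FPKM in at least 3 libraries were tested (11114 genes) with limma on log2(FPKM + 1), and no gene passed an adjusted p of 0.05 (0% called). At an unadjusted p under 0.05 there were 1998 genes (18.0%), and limma-voom on the recovered reads called 242 genes higher (2.18%) and 268 lower (2.41%). Of 12 hepatocyte markers 10 had a mean of at least 1 FPKM, with Hnf4a at 87.0 to 95.5 and Alb at 26.2 to 34.1 FPKM, while Apoa1 and Serpina1a were under 1 FPKM. Leukocyte markers summed to 175 to 194 FPKM in control and 200.1 to 216.7 FPKM in SMF libraries, nearly all of it Cd14. Of the 12, 8 were listed, Ptprc was at most 0.016 FPKM, and the groups did not overlap in this sum. Its part in the values below was not tested. Markers of stellate cells and of endothelium summed to under 2 FPKM in every library, with Col1a2 and Dcn at 0.

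Most of the lysosomal genes in this set stood slightly higher in the SMF libraries, by a few percent, and none of them passed the limma test. Of the 41 genes, 40 passed the filter on low values. A fold above 0 was found for 32 of these 40 (80.0%) against 46.7% of all genes tested, with a median log2 fold of 0.08 against -0.01. The set was chosen with earlier results of these data known, so this contrast is a description only. In further lists of lysosomal genes, given under other observations, the share above 0 was lower. It was 68.8% for other hydrolases and 45.5% to 53.8% for the remaining lists. By limma 0 of 40 were called, and the adjusted p ran from 0.147 to 0.986. An unadjusted limma p under 0.05 was found for 13 of 40, against 18.0% of all genes tested. All 3 SMF libraries lay above all 3 control libraries for 15 genes, against 11.0% of all genes tested, and below them for 1, Lipa, against 12.7%. Log2 folds ran from -0.08 for Lamp2 to 0.21 for Atp6v0b. The gene left out by the filter was Ctsf, the cysteine protease cathepsin F, with 13 to 36 reads a library and 0.332 ± 0.0693 FPKM in control against 0.237 ± 0.0853 FPKM in SMF libraries (SD, n = 3). Folds varied with GC content and gene length, so a corrected fold, from values with the loess trend in both properties taken out of each library, is given beside a gene where it differed by over 1.5 times or ended a call. All folds are from limma. In bulk RNA a change in the number of cells that express a gene and a change in RNA per cell cannot be told apart.

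**Figure D2:**
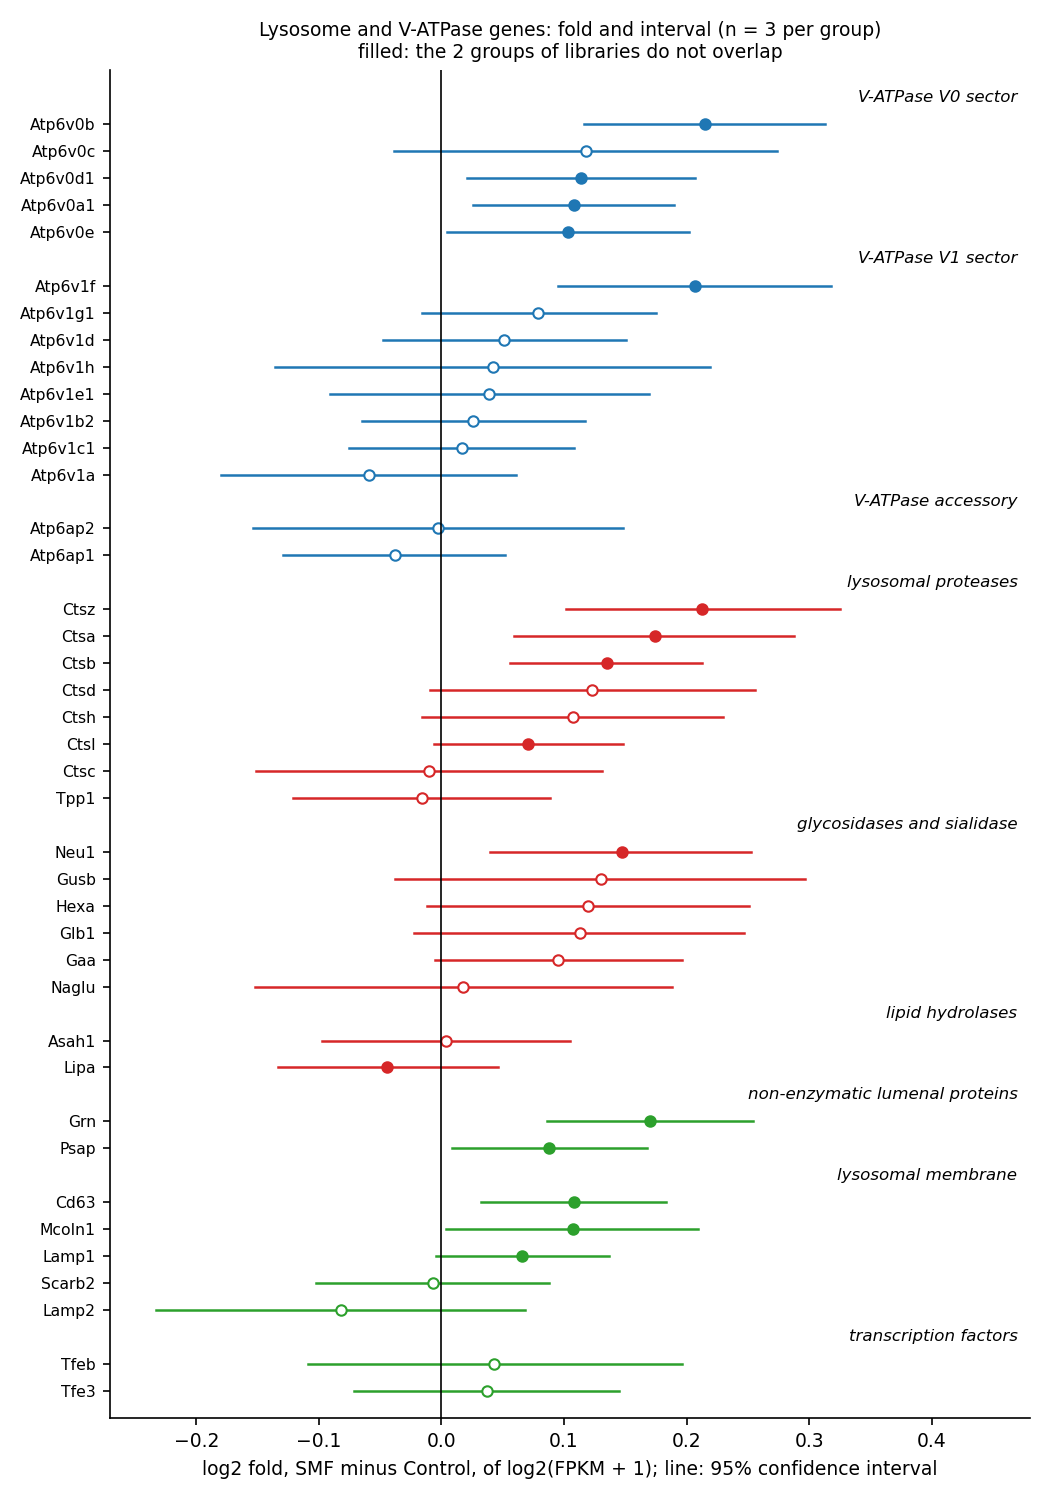
Log2 fold of SMF minus Control on the log2(FPKM + 1) scale (horizontal axis) for the 40 tested genes in their functional groups, with the 95% confidence interval from limma as a line. Filled points mark the 16 genes whose libraries did not overlap between groups, of which Lipa alone lies below 0, and all 5 V0 subunits lie between 0.10 and 0.21.

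The 5 subunits of the V0 sector in this set all stood above the controls on average. Their log2 folds were 0.10 to 0.21, with a median of 0.11. All 5 stayed above 0 under every scaling, filter and left-out library tried in which they were tested. In 4 of the 5 every SMF library lay above every control (11.0% of all genes tested). Of V0 subunits outside this set, log2 folds were 0.002 for Atp6v0a2 (0.026 corrected), 0.14 for Tcirg1 (0.08 corrected) and 0.145 for Atp6v0e2. Atp6v0b (ENSMUSG00000033379), a proteolipid of the rotor ring, was at 65.6, 64.3 and 61.2 FPKM in Control 2, 3 and 4 and at 76.1, 71.0 and 75.2 FPKM in SMF 1, 2 and 3. Its lowest SMF value lay above its highest control value. The mean was 63.7 ± 2.28 FPKM in control and 74.1 ± 2.74 FPKM in SMF libraries (SD, n = 3), 16.3% higher, with a log2 fold of 0.21 (95% interval 0.12 to 0.31). The adjusted p was 0.147 in limma and 0.0151 in limma-voom. The corrected fold was 0.13, with an adjusted p of 0.167 in limma-voom.

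Atp6v0a1 (ENSMUSG00000019302), the large membrane subunit through which protons pass, was at 37.2, 37.2 and 37.9 FPKM in the controls and at 39.7, 41.5 and 40.1 FPKM in the SMF libraries. The controls lay within 1 FPKM of each other and below every SMF library. The log2 fold was 0.11 (95% interval 0.03 to 0.19, limma adjusted p 0.204). Atp6v0d1 (ENSMUSG00000013160), which couples the rotor ring to the central stalk, was at 62.7, 62.5 and 64.2 FPKM in the controls and at 68.3, 65.5 and 71.5 FPKM in the SMF libraries. SMF 2 was the lowest of the SMF libraries and still above the controls. The log2 fold was 0.11 (95% interval 0.02 to 0.21, limma adjusted p 0.218), and the corrected fold 0.05. Atp6v0e, a small membrane subunit, went from 27.9 ± 0.934 to 30.03 ± 0.906 FPKM (SD, n = 3), also without overlap.

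Atp6v0c (ENSMUSG00000024121), the main proteolipid of the ring, was listed at 4.73 ± 0.247 FPKM in control and 5.22 ± 0.372 FPKM in SMF libraries (SD, n = 3), far below Atp6v0b. Its processed pseudogene Atp6v0c-ps2 (ENSMUSG00000080242) was listed at 97.5, 99.3 and 92.7 FPKM in the controls and at 124, 91.1 and 109 FPKM in the SMF libraries. The pseudogene is 465 bases long, and 464 of them are identical to the Atp6v0c transcript in the GENCODE M21 sequences. The single difference is T111C, the base of the gene first, with the position counted from 1 at the 5′ end of the pseudogene. The stretch around it is shown in both, 5′ to 3′ on the sense strand, with the differing base in capitals, since a read that does not cover this base matches both genes over the shared part.
Atp6v0c: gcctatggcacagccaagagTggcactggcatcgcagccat
Atp6v0c-ps2: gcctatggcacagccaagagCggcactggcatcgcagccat

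Of all 75-base words of the pseudogene, 80.82% were also in the gene, and the sources used here do not give how reads that match several places were counted. The pseudogene held 71.8% to 75.4% of the reads listed for the pair. Together the pair had 61.1, 61.4 and 60.0 CPM (reads scaled to the library total) in the controls and 76.6, 58.7 and 68.7 CPM in the SMF libraries. SMF 2 lay below all controls and SMF 1 and SMF 3 above them. The means, 60.8 ± 0.74 and 68.0 ± 8.97 CPM (SD, n = 3), gave an exact two-sided permutation p of 0.4, where 0.1 is the smallest that 3 against 3 allows. The level and the fold of Atp6v0c alone (log2 fold 0.12, corrected 0.06) are therefore uncertain.

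**Figure D3:**
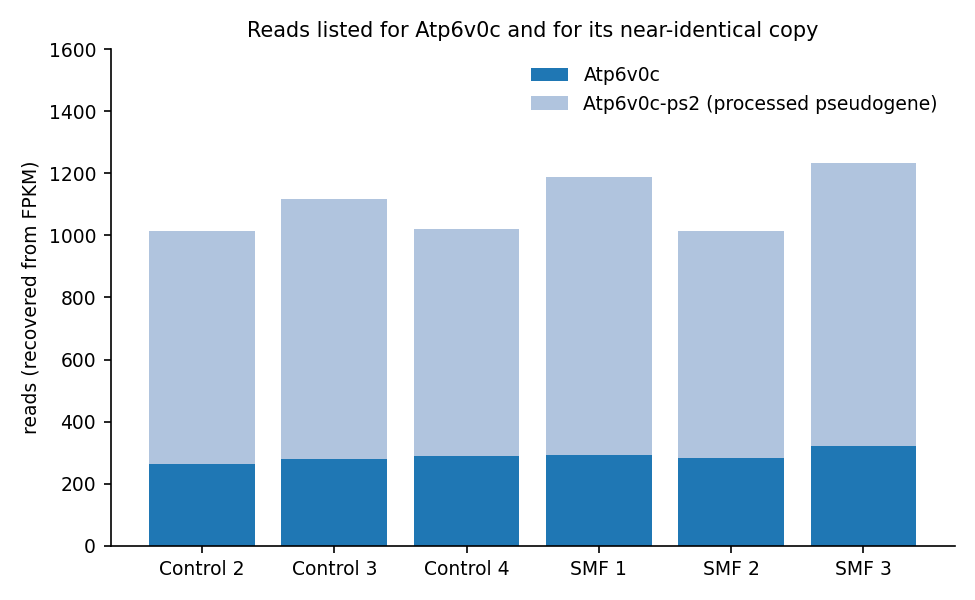
Reads recovered from FPKM for Atp6v0c (dark) and its pseudogene Atp6v0c-ps2 (light, stacked) in each of the 6 libraries, with reads on the vertical axis. The pseudogene takes 71.8% to 75.4% of every bar, and SMF 2 has 1014 reads in all, close to the 1015 to 1118 of the controls.

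The 8 subunits of the V1 sector had a median log2 fold of 0.04, with 7 of 8 above 0, against 46.7% of all genes tested. Every SMF library lay above every control for 1 of 8, Atp6v1f, a share near the 11.0% of all genes tested. Under TPM scaling and under quantile normalization 5 of 8 stayed above 0. After correction for GC content and length all 8 were above 0, against 5541 of 11055 over all genes. The median was then 0.075, and that of the 5 V0 subunits was 0.127. Atp6v1f (ENSMUSG00000004285), a subunit of the central stalk, was at 99.2, 95.8 and 95 FPKM in the controls and at 119.9, 107 and 109.0 FPKM in the SMF libraries. SMF 1 stood well above SMF 2 and SMF 3, which were close together and above the controls. The mean was 15.7% higher, with a log2 fold of 0.21 (95% interval 0.10 to 0.32) and an adjusted p of 0.158 in limma and 0.0292 in limma-voom. The corrected fold was 0.11, with an adjusted p of 0.436 in limma-voom.

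Atp6v1g1 (ENSMUSG00000039105), a subunit of the outer stalks and the V1 subunit with the next highest level, was at 84.1, 84.2 and 88.7 FPKM in the controls and at 92.1, 86.5 and 93.2 FPKM in the SMF libraries. SMF 2 lay between the controls, and the log2 fold was 0.08 (95% interval -0.02 to 0.17, limma adjusted p 0.354), or 0.03 corrected. The ring that hydrolyses ATP is built from Atp6v1a and Atp6v1b2, and neither separated the groups. Atp6v1a, the catalytic subunit, had 26.9 ± 0.685 FPKM in control and 25.8 ± 1.67 FPKM in SMF libraries (SD, n = 3), with a log2 fold of -0.06 (95% interval -0.18 to 0.06), or 0.01 corrected. Atp6v1b2, its nucleotide-binding partner, had 47.8 ± 1.36 and 48.7 ± 1.45 FPKM (SD, n = 3), with a log2 fold of 0.03 (95% interval -0.07 to 0.12), or 0.07 corrected. Of the other stalk subunits Atp6v1d, Atp6v1e1 and Atp6v1c1 and the regulatory subunit Atp6v1h, log2 folds were 0.02 to 0.05, with overlapping libraries in each, and corrected folds 0.06 to 0.15. The accessory proteins Atp6ap1 and Atp6ap2, which take part in assembly of the pump, had log2 folds of -0.04 (95% interval -0.13 to 0.05) and 0.00 (95% interval -0.15 to 0.15). Their corrected folds were -0.06 and 0.06.

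Of the 16 tested hydrolases 13 had a fold above 0, against 46.7% of all genes tested, with a median log2 fold of 0.11. By limma-voom 3 were called higher, the cathepsins Ctsa, Ctsb and Ctsz, against 2.18% of all genes tested, and with corrected values Ctsb alone. All SMF libraries lay above all controls for 5, Ctsa, Ctsb, Ctsl, Ctsz and Neu1, against 11.0% of all genes tested. Ctsz (ENSMUSG00000016256), a carboxypeptidase of the papain family and the most abundant hydrolase of the set per length, was at 227, 238 and 219 FPKM in the controls and at 279, 251 and 263 FPKM in the SMF libraries. SMF 1 was the highest and SMF 2 the lowest of the SMF libraries, which all exceeded the controls. The mean went from 228.0 ± 9.61 to 265 ± 14.2 FPKM (SD, n = 3), 16.1% higher, with a log2 fold of 0.21 (95% interval 0.10 to 0.32). The adjusted p was 0.158 in limma and 0.00848 in limma-voom. The corrected fold was 0.10, with an adjusted p of 0.256 in limma-voom.

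Ctsb (ENSMUSG00000021939), an endopeptidase abundant in liver lysosomes, was at 61.5, 60.9 and 59.1 FPKM in the controls and at 67.1, 67.0 and 65.5 FPKM in the SMF libraries. Both groups were tight, with 60.5 ± 1.26 against 66.5 ± 0.931 FPKM (SD, n = 3) and nothing in between. The log2 fold was 0.13 (95% interval 0.06 to 0.21), with an adjusted p of 0.164 in limma and 0.0404 in limma-voom, or 0.0309 with corrected values. Of its 75-base words, 11.76% were also in Fdft1, listed at 32.3 FPKM, so the reads over that stretch could belong to either gene.

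Ctsa (ENSMUSG00000017760), which trims peptides and protects the sialidase, was at 29.1, 26.8 and 25.8 FPKM in the controls and at 31.0, 30.2 and 31.2 FPKM in the SMF libraries. The controls were more scattered than the SMF libraries, and Control 2 came closest to them. The log2 fold was 0.17 (95% interval 0.06 to 0.29), with an adjusted p of 0.172 in limma and 0.0405 in limma-voom. The corrected fold was 0.13, with an adjusted p of 0.183 in limma-voom. Neu1 (ENSMUSG00000007038), the lysosomal sialidase that forms a complex with Ctsa, was at 29.2, 28.5 and 28.5 FPKM in the controls and at 33.5, 30.1 and 32.3 FPKM in the SMF libraries. It had a log2 fold of 0.15 (95% interval 0.04 to 0.25) and an adjusted p of 0.194 in limma and 0.0906 in limma-voom.

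Ctsd (ENSMUSG00000007891), the main aspartic protease of lysosomes, was at 130.0, 120.3 and 118 FPKM in the controls and at 141, 124 and 137 FPKM in the SMF libraries. SMF 2 lay below Control 2, so the groups overlapped, and the log2 fold was 0.12 (95% interval -0.01 to 0.26, limma adjusted p 0.303), or 0.06 corrected. A share of 31.29% of its 75-base words was also in the gene model Gm49369, not analysed here. Among the other proteases, Ctsl and Ctsh had log2 folds of 0.07 (0.14 corrected) and 0.11. Of the 75-base words of Ctsl, 24.31% were also in the gene model Gm47123, not analysed here. Ctsc and Tpp1, a dipeptidyl and a tripeptidyl peptidase, were at -0.01 (0.08 corrected) and -0.02 (-0.005 corrected). The glycosidases Gaa (glycogen), Glb1, Hexa and Gusb had log2 folds of 0.10 to 0.13 with overlapping libraries, and Naglu was at 0.02 (95% interval -0.15 to 0.19). Corrected folds were 0.03 for Gaa, 0.05 for Hexa and -0.08 for Naglu, and the median of the class went from 0.12 to 0.07. In this class SMF 2 stayed near the controls: the median over its 6 genes of the log2 level relative to the control mean was 0.16 to 0.17 in SMF 1 and SMF 3 and 0.02 in SMF 2. Of the lipid hydrolases, Asah1, acid ceramidase, had a log2 fold of 0.00 (95% interval -0.10 to 0.10), or 0.07 corrected. Lipa, lysosomal acid lipase, was at 22.4 ± 0.520 FPKM in control and 21.7 ± 0.283 FPKM in SMF libraries (SD, n = 3). Lipa had every SMF library below every control, by a few percent (log2 fold -0.04, 95% interval -0.13 to 0.05, limma adjusted p 0.574), and its corrected fold was 0.05.

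**Figure D4:**
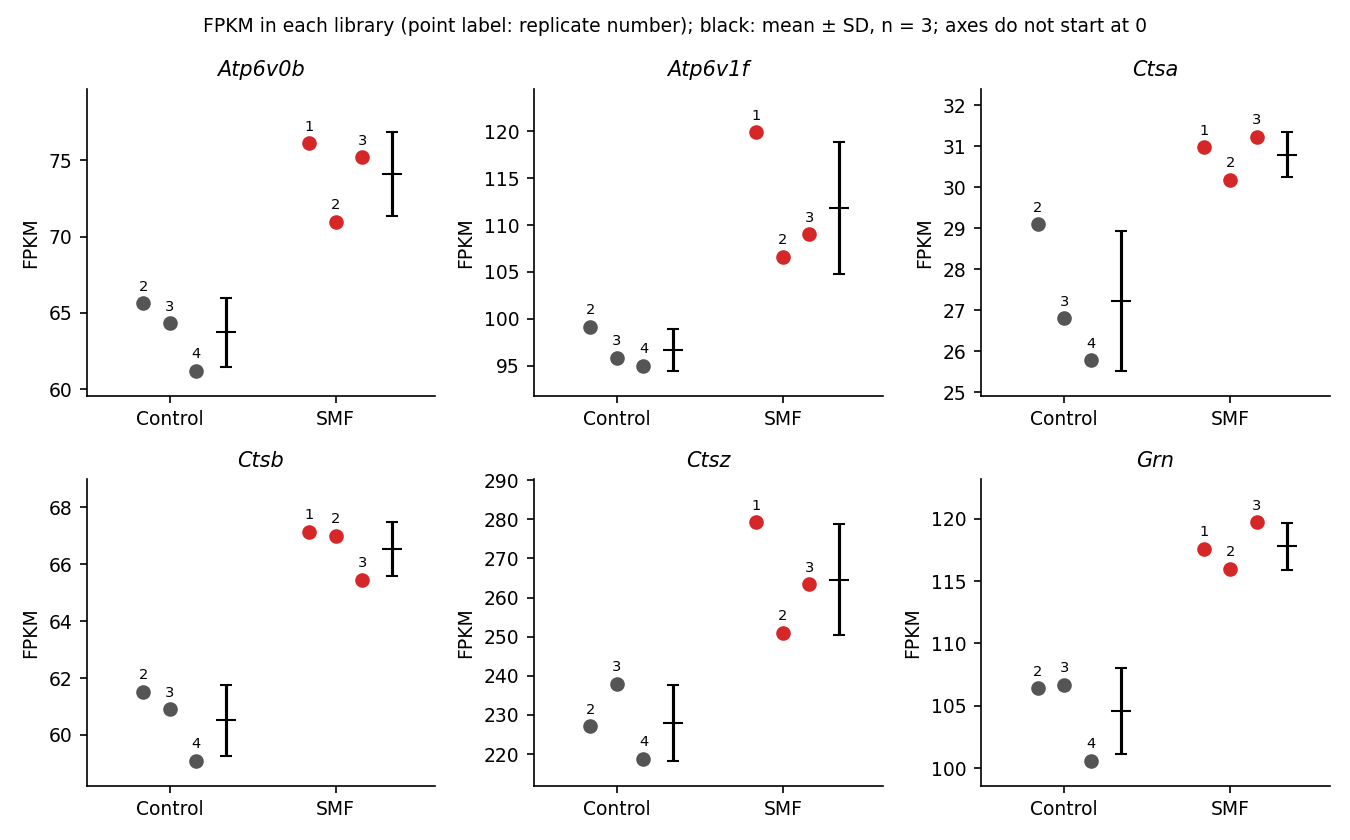
FPKM in each library (vertical axes, which do not start at 0) of the 6 genes called higher by limma-voom, with the replicate number beside each point and the mean ± SD of 3 libraries in black. No SMF library of these genes lies at or below a control library.

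Among the 9 other lysosomal genes 7 had a fold above 0, with a median log2 fold of 0.07. Grn (ENSMUSG00000034708), the progranulin precursor that is cut into granulins in the lysosome, was at 106, 107 and 100.6 FPKM in the controls and at 118, 116.0 and 119.7 FPKM in the SMF libraries. The SMF libraries lay close together and above all controls. The log2 fold was 0.17 (95% interval 0.09 to 0.25), with an adjusted p of 0.147 in limma and 0.0167 in limma-voom. The corrected fold was 0.12, with an adjusted p of 0.116 in limma-voom.

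Psap (ENSMUSG00000004207), the precursor of the saposins that present sphingolipids to hydrolases, was at 295, 289.9 and 288 FPKM in the controls and at 318, 299 and 312.0 FPKM in the SMF libraries. Lamp1 (ENSMUSG00000031447), a major glycoprotein of the lysosomal membrane, was at 302, 301 and 292 FPKM in the controls and at 314, 310.0 and 313 FPKM in the SMF libraries. Both are abundant, neither overlapped between groups, and the log2 folds were small, 0.09 (95% interval 0.01 to 0.17, limma adjusted p 0.244) and 0.07 (95% interval -0.004 to 0.137, limma adjusted p 0.299). The corrected fold of Psap was 0.03. Cd63 (ENSMUSG00000025351), a tetraspanin of late endosomes and lysosomes, was at 205, 203 and 211 FPKM in the controls and at 224, 217 and 225 FPKM in the SMF libraries, a log2 fold of 0.11 (95% interval 0.03 to 0.18, limma adjusted p 0.185). Under quantile normalization Lamp1 moved to a log2 fold of -0.01. Lamp2, which also serves chaperone-mediated autophagy, had 34.9 ± 1.5 FPKM in control and 32.9 ± 3.00 FPKM in SMF libraries (SD, n = 3), with a log2 fold of -0.08 (95% interval -0.23 to 0.07) that was 0.04 corrected. Scarb2, the receptor that carries glucocerebrosidase, had 16.3 ± 0.269 and 16.2 ± 0.384 FPKM (SD, n = 3), a log2 fold of -0.01 (95% interval -0.10 to 0.09), or 0.03 corrected.

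Mcoln1 (ENSMUSG00000004567), the lysosomal calcium channel TRPML1, was at 15.8, 15.9 and 15.8 FPKM in the controls and at 17.9, 16.4 and 17.1 FPKM in the SMF libraries. The 3 controls were almost equal and lay below every SMF library, with a log2 fold of 0.11 (95% interval 0.004 to 0.209, limma adjusted p 0.265). Tfeb (ENSMUSG00000023990), which acts mainly through its place in the cell rather than its mRNA level, was at 3.32, 3.36 and 3.57 FPKM in the controls and at 3.46, 3.73 and 3.48 FPKM in the SMF libraries. Tfe3 (ENSMUSG00000000134), its paralog, was at 8.81, 8.56 and 8.35 FPKM in the controls and at 8.74, 8.99 and 8.74 FPKM in the SMF libraries. Both overlapped between groups, with log2 folds of 0.04 (95% interval -0.11 to 0.20) and 0.04 (95% interval -0.07 to 0.15), that of Tfeb being -0.04 corrected.

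The genes with the palindrome TCACGTGA in their promoter, printed above, had a median log2 fold of 0.11, with 5 of 6 above 0. The 27 tested genes with a promoter and no palindrome had a median of 0.07, with 20 above 0. Their ranges were -0.06 to 0.17 and -0.08 to 0.21. Some of the genes without the palindrome carried the 7-base form. Split by TCACGTG, the 11 genes with it had a median of 0.107, with 10 above 0. The 22 without it had a median of 0.061, with 15 above 0. Split by CACGTG, the medians were 0.105 with it (11 of 12 above 0) and 0.051 without it (14 of 21 above 0). Atp6v0b, with 2 copies of the 7-base form and no palindrome, had the highest uncorrected fold of all, and Atp6v1a, with a palindrome, was below 0. Neither held after correction for GC content and length. Atp6v0b was then at 0.134, below Atp6v1h at 0.153, and Atp6v1a was at 0.007. The medians and ranges given here are of uncorrected folds. Differences between these groups of genes were not tested.

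Fold varied with gene properties, among these genes as among all genes tested. Across the 40 tested genes Spearman's rho of log2 fold was 0.63 with GC content and -0.46 with gene length, and across 11055 genes tested it was 0.51 and -0.36. These are correlations across genes of the same 6 libraries, and genes are not independent replicates. After the trend in both properties had been taken out of each library by loess, rho among the 40 genes was -0.16 and 0.11. The folds of Atp6v0b and Ctsz then went from 0.21 to 0.13 and from 0.21 to 0.10, and that of Atp6v1f from 0.21 to 0.11. Those of Ctsb and Grn went from 0.13 to 0.15 and from 0.17 to 0.12. After correction 36 of 40 genes had a fold above 0, against 5541 of 11055 over all genes. The median of the 40 was 0.07, against 0.00 over all genes.

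**Figure D5:**
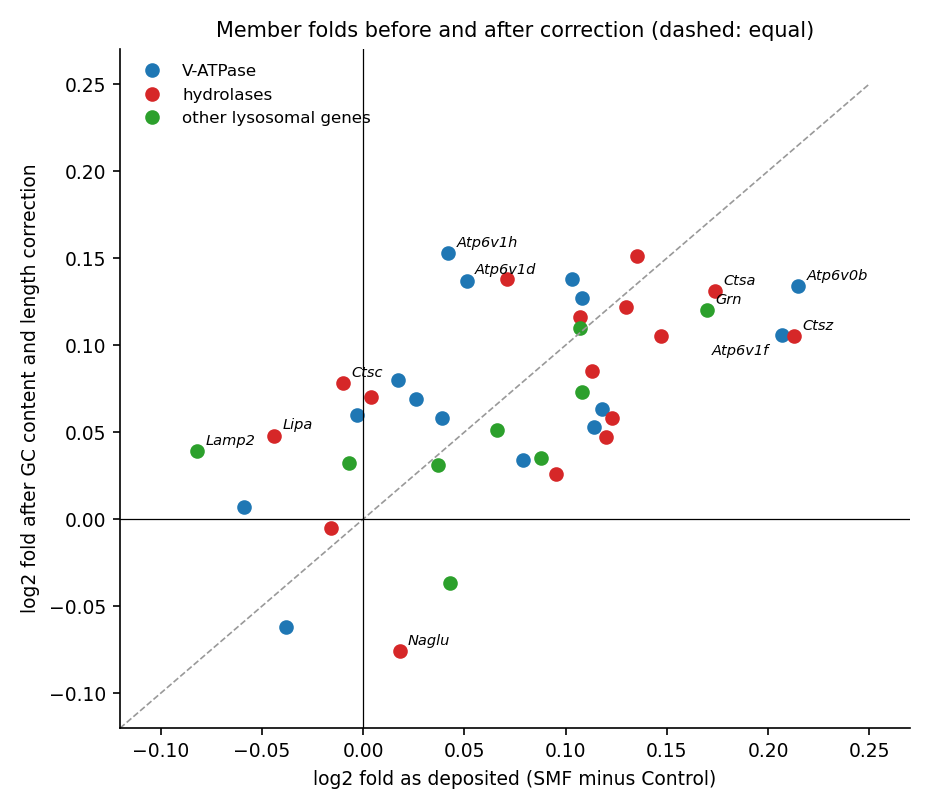
Log2 fold of the 40 tested genes before (horizontal axis) and after (vertical axis) correction for GC content and gene length, coloured by group, with the dashed line at equal values. The genes with the largest folds as deposited lie below the line, at 0.10 to 0.13 after correction, and long or AT-rich genes such as Atp6v1h, Ctsc and Lamp2 lie above it.

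V-ATPase genes and hydrolases were set side by side. Their median log2 folds were 0.05 (12 of 15 above 0) and 0.11 (13 of 16 above 0), and 0.07 and 0.08 after correction for GC content and length. Per library, the median of the log2 level relative to the control mean was -0.02 to 0.02 in the controls and 0.07 to 0.10 in the SMF libraries for V-ATPase genes. For hydrolases it was -0.02 to 0.03 in the controls and 0.14, 0.05 and 0.14 in SMF 1, SMF 2 and SMF 3. SMF 2 was the lowest SMF library in both groups and still above every control. The difference between the 2 groups of genes was not tested.

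By limma-voom on the recovered reads 6 genes were called higher, against 2.18% of all genes tested: Atp6v0b, Atp6v1f, Ctsa, Ctsb, Ctsz and Grn. After correction for GC content and length 1 was called, Ctsb (adjusted p 0.0309 in limma-voom), against 0.507% of all genes. The count also depended on single libraries. It was 4 without Control 2 (Atp6v0b, Ctsa, Ctsz and Grn, with 1.03% of all genes called higher) and 3 without Control 3 (Atp6v0b, Ctsz and Grn, with 1.69%). It was 0 without Control 4 (0.0360% of all genes), without SMF 1 (0.333%) or without SMF 3 (0.459%). Without SMF 2 it was 11, 10 of them higher and Lamp2 lower. That fit called 601 of 11114 genes higher (5.41%) and more genes, 864, lower.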

How the data were processed

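RNA-seq of AML12 cells was deposited as 1 table per library, 3 Control and 3 SMF, grouped by sample title. The FPKM values were calculated by the authors and deposited for 23886 Ensembl identifiers. Per the labels' protocols, TRIZOL RNA was enriched for poly(A) with oligo(dT) beads, and random-primed cDNA entered a VAHTS Universal V6 kit. No strand marking is stated, so overlapping genes cannot be told apart. HISAT2 2.1.0, Bowtie2 2.2.3 and build GRCm39 are named per the submitters' processing notes, without their roles. The counting tool and its annotation, and how reads with several matches were handled, were not given in the sources used here.

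Symbols came from a gene table that named 23521 of the identifiers. Lengths, GC content and transcript sequences came from GENCODE M21, on build GRCm38. Reads were recovered as FPKM × length × library total: all 22004 genes above 0 came out whole within 0.02 reads, 96.94% of them with the M21 exon length and 674 by a search over lengths. Tables held 0 columns of other samples. limma 3.58.1 in R 4.3.3 was fitted with a variance trend to log2(FPKM + 1), two-sided, without covariates, on genes with at least 1 FPKM in at least 3 libraries, with Benjamini-Hochberg adjustment over all genes tested. Folds are differences of log2(FPKM + 1), and for genes of low level they understate the change. Precision rests on 3 libraries a group.

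The genes and lists were chosen with earlier results of these data known, so no list was tested as a set. Values in every library are given for the 4 genes with the smallest unadjusted p and the 2 with the highest mean FPKM of each of the V-ATPase, hydrolase and other groups, and for Tfeb, Tfe3 and Mcoln1. Of each further list, the 2 with the smallest p and the 1 with the highest mean are named, and so are the further V0 subunits tested. Alternatives were other pseudocounts and filters, TPM, median-of-ratios and quantile scaling, no variance trend, a loess correction for GC content and length (span 0.3), a replicate block, each library left out, and limma-voom. The corrected, blocked and leave-one-out fits of limma-voom were chosen after seeing the data. Both tests were tested on simulated data with known changes. At a 1.2-fold change, the smallest simulated, limma recovered 44% of changed genes and limma-voom 72%. False calls numbered 8 and 11. The simulation held no trend in GC content or length and did not cover the smaller folds of the tested lysosomal genes. Sequences shared between genes were counted as 75-base words, with Biopython 1.88 in Python 3.11.15, and figures were drawn with matplotlib 3.10.9.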

Additional observations from a re-analysis of the deposited data

How the results depend on the processing

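limma called 0 of 41 lysosomal genes under each alternative except limma-voom, which called 6. Over all genes the count was 0, against 8 with a filter at 5 FPKM, 510 by limma-voom, and 0 to 3 with a library left out. Of 40 tested genes 24 kept a fold above 0 under every setting, and for those with a changed sign the cause was not tested. With a filter at 5 FPKM the median log2 fold was 0.077 for other lysosomal genes and 0.044 for other V-ATPase subunits and regulators. TPM scaling moved the median of all genes from -0.010 to -0.043. It gave 0.051 for all 40 genes, 0.020 for V-ATPase genes, 0.033 for other lysosomal genes, 0.010 for the further hydrolases, -0.042 for further membrane proteins, -0.050 for sorting and -0.045 for nutrient sensing. Reversed there were Naglu (-0.015), Asah1 (-0.030), Atp6v1b2 (-0.007) and Atp6v1c1 (-0.016). Quantile normalization gave 0.060 for all 40 genes and 0.001 for nutrient sensing, and reversed Lamp1 (-0.010), Asah1 (-0.032), Atp6v1b2 (-0.015) and Atp6v1c1 (-0.001). Correction for GC content and length gave 0.039 for other lysosomal genes, 0.023 for sorting and 0.016 for nutrient sensing. Of the sorting genes 8 of 11 were then above 0, against 5541 of 11055 over all genes. The correction reversed Lamp2 (0.039), Scarb2 (0.032), Ctsc (0.078), Naglu (-0.076), Lipa (0.048), Tfeb (-0.037), Atp6ap2 (0.060) and Atp6v1a (0.007). Median-of-ratios scaling reversed Scarb2 (0.002) and Atp6ap2 (0.007), and limma-voom Atp6ap2 (0.002). With the GC and length correction limma-voom called 1 of the 41, and with a library left out 0 to 11.

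Replicate numbers 2 and 3 occur in both groups, and same-numbered libraries correlated at 0.058 and 0.046 in their deviations from the group means. Differently numbered pairs ran from -0.148 to 0.107. Whether a shared number marks a pairing cannot be told from so few pairs. A replicate block compared only libraries that share a number, so its folds rested on Control 2, Control 3, SMF 2 and SMF 3. The libraries without a same-numbered partner added nothing to these folds. Few libraries were thus left to estimate the spread, and the calls of the blocked fits are less certain. With this block limma called 19 genes and 0 of the 41, and limma-voom called 71 genes and 0 of the 41. The median was 0.075 for V-ATPase genes and 0.010 for nutrient sensing. The block reversed Scarb2 (0.005), Ctsc (0.018), Naglu (-0.023), Atp6ap2 (0.075) and Atp6v1e1 (-0.024).

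With a library left out, medians ran from 0.071 to 0.102 for all 40 genes, 0.053 to 0.090 for V-ATPase genes, 0.083 to 0.132 for hydrolases, 0.062 to 0.075 for other lysosomal genes, 0.023 to 0.062 for the further hydrolases, -0.022 to 0.021 for further membrane proteins, -0.041 to 0.004 for sorting, -0.018 to 0.020 for other V-ATPase genes and -0.024 to 0.013 for nutrient sensing. Folds changed sign for Asah1 (-0.038 to 0.029), Atp6ap2 (-0.047 to 0.065), Atp6v1e1 (-0.017 to 0.091), Atp6v1h (-0.015 to 0.092), Ctsc (-0.070 to 0.026), Naglu (-0.049 to 0.067), Scarb2 (-0.025 to 0.004) and Tpp1 (-0.034 to 0.010). Depth limits Ctsf, at 13 to 36 reads a library, and Atp6v0c, at 262 to 320.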

Other observations

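Further genes of the lysosome were taken from 5 lists beyond the 41 genes, and limma called 0 genes in each. Over all genes tested, 46.7% had a fold above 0, the median log2 fold was -0.01 and 18.0% had an unadjusted p under 0.05, and most counts below are near those shares. limma-voom called 2.18% of all genes higher and 2.41% lower, and each of the 5 genes it called in these lists lost the call with values corrected for GC content and gene length. Log2 folds, corrected ones included, are those of limma, and each adjusted p printed is that of limma-voom. Of 32 tested other hydrolases 22 had a fold above 0 (68.8%), with a median log2 fold of 0.04 and 5 at an unadjusted p under 0.05. Ids, which removes sulfate from glycosaminoglycans, was at 10.8 ± 0.763 FPKM in control and 8.82 ± 0.395 FPKM in SMF libraries (SD, n = 3), and was called lower by limma-voom (log2 fold -0.26, adjusted p 0.0225; corrected -0.17 and 0.183). Dpp7, a dipeptidyl peptidase, had a log2 fold of 0.21 (limma-voom adjusted p 0.0722). Scpep1, a serine carboxypeptidase, had the highest level of the list, 170.5 ± 4.94 and 172.7 ± 3.31 FPKM (SD, n = 3). Of 26 tested other membrane and transport proteins 12 were above 0, with a median of -0.01 and 3 at an unadjusted p under 0.05. Pip4p1, a lysosomal phosphoinositide phosphatase, was called higher by limma-voom (11.9 ± 0.351 to 13.9 ± 0.189 FPKM, SD, n = 3; log2 fold 0.21, adjusted p 0.0348; corrected 0.19 and 0.0796). Npc2, a lumenal cholesterol carrier, had a log2 fold of 0.11, and Laptm4a, the most abundant of the list, one of -0.06.

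Of 13 tested other V-ATPase subunits, assembly factors and regulators 7 were above 0, with a median of 0.00 and 3 at an unadjusted p under 0.05. Oxr1, which has a domain that binds the V1 sector and was the most abundant of the list, was called lower by limma-voom (42.8 ± 2.24 to 37.9 ± 1.28 FPKM, SD, n = 3; log2 fold -0.17, adjusted p 0.0272; corrected -0.07 and 0.546). Tcirg1, the a3 form of the large membrane subunit, had a log2 fold of 0.14 (limma-voom adjusted p 0.0906), or 0.08 corrected. Of 11 tested sorting genes 5 were above 0, with a median of -0.02 and 1 at an unadjusted p under 0.05. Gga1, an adaptor that sorts hydrolase receptors, was at 0.13 (0.04 corrected) and Vps35, the retromer core, at -0.11 (0.01 corrected), and the receptor M6pr had 54.3 ± 0.882 and 53.6 ± 0.584 FPKM (SD, n = 3). Of 22 tested genes of nutrient sensing and TFEB regulation 10 were above 0, with a median of -0.01 and 5 at an unadjusted p under 0.05. Lamtor2, a subunit of the Ragulator scaffold, was called higher by limma-voom (37.7 ± 2.33 to 44.8 ± 1.45 FPKM, SD, n = 3; log2 fold 0.24, adjusted p 0.0377; corrected 0.14 and 0.345). Fnip1, a partner of folliculin, was called lower (6.89 ± 0.302 to 5.68 ± 0.380 FPKM, SD, n = 3; log2 fold -0.24, limma-voom adjusted p 0.0294; corrected -0.12 and 0.399). Lamtor5, the most abundant of the list, had a log2 fold of 0.04, or -0.03 corrected.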
